A study of Mus musculus with 6 samples.

Results

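Collagens are triple-helical proteins of the extracellular matrix, each built from a trio of alpha chains whose helix repeats a short motif with glycine. Type IV collagen forms the sheet-like network of basement membranes, which line blood vessels and epithelia, while types XV and XVIII link that network to the surrounding matrix. Fibrillar collagens (types I, II, III, V, XI, XXIV and XXVII) assemble into the tensile fibres of the stroma, and collagen VI forms beaded microfilaments at the border between cells and matrix.

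The collagen genes described here are the rows of a mouse tumour count table whose symbol is Col, a number, the letter a and a number. Of 43 such genes, the 41 with a summed count of at least 15 over 6 libraries were taken as members, out of 28368 genes in the table. By a class list written by hand, 7 belonged to basement membranes (Col4a1 to Col4a5, Col15a1 and Col18a1), 11 were fibrillar, 5 encoded collagen VI chains and 18 fell in a remaining class of network, fibril-associated, anchoring and transmembrane collagens. The member nearest the threshold was Col19a1 with a summed count of 16, and the genes just outside were Col26a1 and Col6a5 with 4 each. A count filter left 37 members for testing. The other 4, Col19a1, Col25a1, Col6a6 and Col22a1, had 16, 19, 45 and 56 counts over all libraries and were not tested. Col4a6 was not among the 43 matching genes and so was not analysed.

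Polyadenylated RNA of whole mouse tumours was read in 3 treated and 3 control libraries. Treated mice had received MS-DF-MS therapy, with sampling at 12 h, and control mice were untreated. By its title the study concerns an implanted drug depot delivering first a STING agonist and then an apoptosis inducer, STING being an adaptor of cytosolic DNA sensing. The labels name no drug, mouse strain, age or tumour line, and no group carried an empty depot, so an implant and its drugs cannot be told apart. Nor do they tie libraries to animals, and the p-values therefore reflect library-to-library spread that may be partly technical.

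Libraries held 57017043 to 66634551 counts. Treated 3 stood apart on the first principal component of log2 CPM (72.9, against -37.9 to 13.3 in the other 5), and no pair of libraries agreed within sampling noise. Pigment-cell transcripts were abundant in both groups, with 8 melanocyte lineage genes summing to 26917 to 29202 CPM in treated libraries and to 25515 to 27925 CPM in controls. Treated 1 also held keratinocyte transcripts: 8 markers summed to 98.3 CPM there, against 1.40 and 2.12 CPM in treated 2 and 3 and 1.45 to 1.95 CPM in controls. Skeletal muscle transcripts varied within both groups, from 4.65 to 170.4 CPM over 10 genes in treated and from 31.9 to 78.8 CPM in control libraries. In whole tumours, more cells of a type and more RNA per cell cannot be told apart.

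The start sites of the most responsive pair lie head to head. Col4a1 (ENSMUSG00000031502, chromosome 8, 11198423 to 11312826, minus strand) and Col4a2 (ENSMUSG00000031503, 11312805 to 11449287, plus strand) share 22 bases of their 5′ ends and are known to be transcribed in opposite directions from a common promoter. Col4a4 and Col4a3 have the same layout on chromosome 1, with 71 bases between their start sites. The first sequence is shown because it holds the start sites of both chains that rose most clearly, with the shared bases in capitals, and the second because it separates the start sites of a pair that did not pass the test. Both are plus-strand sequences of the RefSeq promoter table, build GRCm38.p6, at chr8:11312801-11312830 and chr1:82586850-82586920.
Col4a1 and Col4a2 start sites: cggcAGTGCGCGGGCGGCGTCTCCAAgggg
Between Col4a4 and Col4a3: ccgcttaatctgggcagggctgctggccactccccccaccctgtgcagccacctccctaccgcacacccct

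Upstream sequences of a basement membrane, a collagen VI and a fibrillar gene are shown to compare their base composition and core motifs. They lie outside annotated exons, on the strand of each gene (minus, minus and plus), at chr10:77166549-77166780, chr10:76726169-76726294 and chr1:45311288-45311537 of GRCm38.p6. Capitals mark matches on either strand to the GC box GGGCGG, the CCAAT box, the TATA box motif TATAAA or the AP-1 motif TGANTCA.
Col18a1 upstream: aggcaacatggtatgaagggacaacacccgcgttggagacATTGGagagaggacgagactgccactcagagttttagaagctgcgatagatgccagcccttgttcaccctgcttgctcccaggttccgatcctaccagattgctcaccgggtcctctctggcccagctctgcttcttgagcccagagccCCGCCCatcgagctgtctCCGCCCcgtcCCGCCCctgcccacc
Col6a1 upstream: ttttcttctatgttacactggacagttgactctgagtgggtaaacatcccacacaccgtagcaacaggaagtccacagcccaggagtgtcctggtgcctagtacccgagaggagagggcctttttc
Col3a1 upstream: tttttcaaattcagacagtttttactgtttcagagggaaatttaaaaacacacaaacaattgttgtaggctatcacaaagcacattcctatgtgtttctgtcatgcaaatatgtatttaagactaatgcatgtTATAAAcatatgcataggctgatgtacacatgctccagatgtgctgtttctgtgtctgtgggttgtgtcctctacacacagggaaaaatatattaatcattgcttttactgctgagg

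The Col18a1 stretch held 3 GC boxes and 1 CCAAT box, the Col6a1 stretch none of the 4 motifs and the Col3a1 stretch a TATA box. GC content was 60.8%, 51.6% and 35.2% in the stretches of Col18a1, Col6a1 and Col3a1. RefSeq promoter windows were found for 33 of the 41 members, with a median GC content of 60.3% against 52.7% over all 32851 windows of the table. Members with more than 1 window (Col9a1, Col6a2 and Col18a1) were given their highest value, while the windows of the table were counted singly. A GC box occurred in 20 of the 33 genes' windows and in 35.7% of all windows, a CCAAT box in 13 (37.4%), a TATA box in 5 (13.6%) and an AP-1 site in 1 (7.81%). The 5 members that rose held a GC box in 3 windows, a CCAAT box in 3, a TATA box in 0 and an AP-1 site in 1, that of Col6a1. This AP-1 match lies in the part of the window inside the gene, outside the printed stretch. The windows of Col4a1 and Col4a2 overlap, and a GC box in their shared bases was counted for both genes. A match is a run of letters, not a shown binding site.

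Treatment was set against no treatment to see which collagen classes moved with the response. In all 5 members rose and 0 fell: the type IV chains Col4a1 and Col4a2, at 1.99-fold and 2.02-fold, the endostatin precursor gene Col18a1 at 1.79-fold, and the collagen VI chains Col6a1 and Col6a3 at 1.54-fold and 1.44-fold. No fibrillar collagen passed the test, nor any member of the remaining class. Among 18049 genes tested by edgeR's quasi-likelihood F test at a Benjamini-Hochberg adjusted p under 0.05, 1.61% were called, 1.36% rising and 0.249% falling. Of the 37 tested members 5 rose and 32 were not called. By class, 3 of 7 basement membrane, 0 of 11 fibrillar, 2 of 4 collagen VI and 0 of 15 remaining genes rose. DESeq2 and limma-voom called 0 fibrillar genes too, and 2 had an unadjusted p under 0.05. At that unadjusted level 11 members were higher and 0 lower, where 9.12% and 6.90% of all tested genes were. The 3 treated libraries lay above the 3 controls for 11 of the 37 tested members and below them for 1. Among all tested genes, 12.0% lay above and 11.2% below (23.3% in either direction). Both counts of 11 include Col17a1, with 470, 14 and 20 counts in treated and 7, 0 and 0 in control libraries. Col17a1 passed the count filter only through the treated group. The median log2 fold change was 0.84 for basement membrane, 0.28 for fibrillar, 0.60 for collagen VI and 0.07 for the remaining genes, beside -0.003 for all tested genes. The highest basement membrane value was that of the scarce Col4a3 (1.22 ± 1.12, edgeR adjusted p = 0.663). Col4a3 passed the filter through its 3 treated libraries, with 15, 2 and 0 counts in controls. Under a stricter filter (minimum count 50), which left it out, the basement membrane median was 0.61. The difference between classes was not tested.

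**Figure D1:**
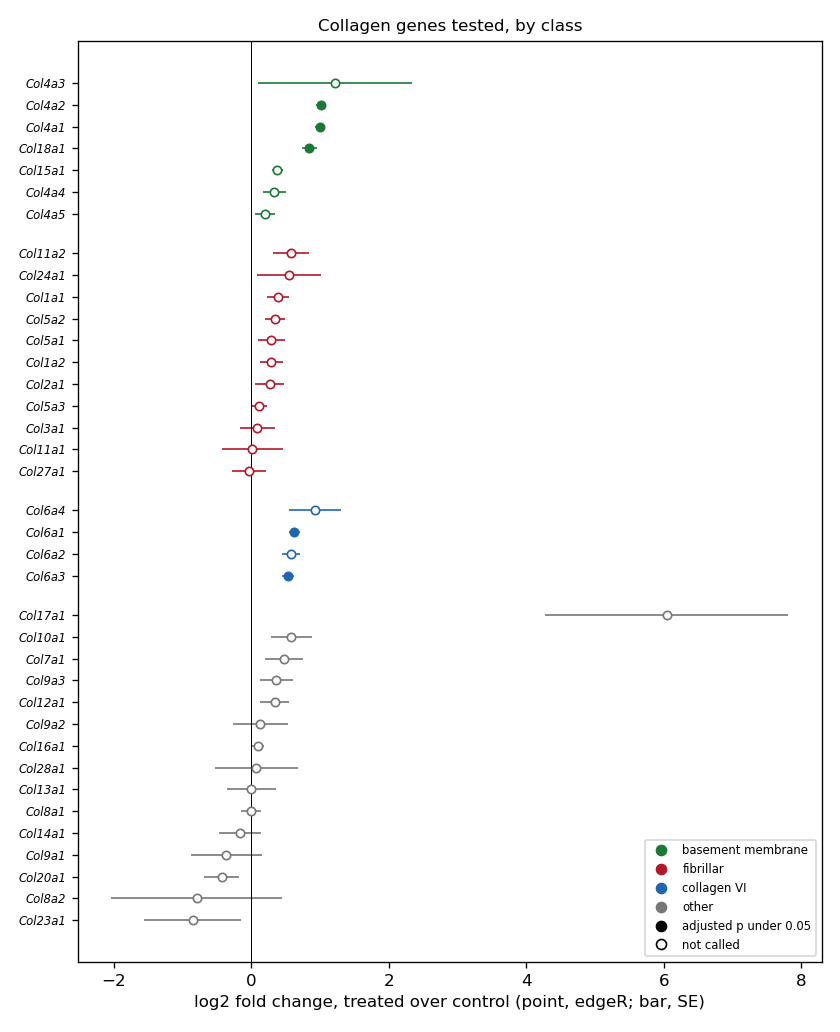
Log2 fold change of treated over control tumours for the 37 tested collagen genes, by class (point, edgeR estimate; bar, SE; filled, adjusted p under 0.05). Filled points are Col4a1, Col4a2, Col18a1, Col6a1 and Col6a3, and the widest bars belong to Col17a1, Col8a2 and Col4a3, which had few counts in most libraries.

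Col4a1 encodes the chain that forms the bulk of the network in vascular basement membranes. Levels here are CPM, that is, counts scaled to a common library size with TMM factors. Col4a1 stood at 306.6, 341.03 and 354.3 CPM in treated 1, 2 and 3, against 172.5, 172.5 and 159.2 CPM in controls 1, 2 and 3. Every treated library exceeded every control by a wide margin. Col4a1 thus had a log2 fold change of 0.99 ± 0.07 (SE, n = 3 each; edgeR adjusted p = 0.000559).

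Col4a2, whose chain joins Col4a1 in the common type IV protomer, stood at 187.3, 224.7 and 217.9 CPM in treated libraries and at 102.6, 106.3 and 103.6 CPM in controls. Its controls were nearly equal, and all treated values were higher. The log2 fold change was 1.01 ± 0.08 (edgeR adjusted p = 0.000692). Both genes kept their call with each library left out in turn (edgeR adjusted p up to 0.00928 for Col4a1 and 0.0104 for Col4a2). The 22 shared bases printed above are a small part of either gene, but whether counting used strand is not given in the sources used here.

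The partner chains moved by a similar factor. The ratio of Col4a1 to Col4a2, in FPKM (a level per length of gene model), was 1.41 ± 0.0585 in treated and 1.43 ± 0.0641 in control tumours (SD, n = 3). Libraries of both groups overlapped in this ratio, from 1.35 to 1.45 in treated and from 1.36 to 1.49 in control.

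Col18a1 (ENSMUSG00000001435, chromosome 10, 77052178 to 77166548) encodes a heparan sulphate-bearing collagen whose C-terminal fragment is the angiogenesis inhibitor endostatin. It stood at 43.0, 39.9 and 38.4 CPM in treated libraries and at 26.0, 21.1 and 20.5 CPM in controls, with no overlap. Its log2 fold change was 0.84 ± 0.11 (edgeR adjusted p = 0.0101). The call was lost without treated 2, control 2 or control 3 (edgeR adjusted p up to 0.0877), while the fold change stayed between 0.78 and 0.97.

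Col15a1, the closest relative of Col18a1, stood at 45.7, 50.9 and 49.6 CPM in treated libraries and at 38.8, 39.1 and 34.7 CPM in controls. The groups did not overlap, yet the log2 fold change of 0.38 ± 0.08 missed the threshold (edgeR adjusted p = 0.0700). It passed by DESeq2 (adjusted p = 0.00776) and by limma-voom with sample quality weights (0.0289). In the other 7 settings that kept all libraries, and in all 6 leave-outs, it missed the threshold.

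The other type IV chains make the networks of kidney, lung and other specialised basement membranes. Col4a5 stood at 14.4, 18.7 and 19.5 CPM in treated and 15.6, 16.4 and 13.9 CPM in control libraries (log2 fold change 0.20 ± 0.14, edgeR adjusted p = 0.556). Col4a4 stood at 20.99, 23.0 and 33.3 CPM in treated and 19.5, 21.4 and 20.6 CPM in control libraries (0.33 ± 0.17, edgeR adjusted p = 0.393), with treated 3 above the rest. Both overlapped between groups.

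The divergent partners Col4a3 and Col4a4 differed greatly in level. Col4a3 had 12, 16 and 13 counts in treated libraries and 15, 2 and 0 in controls, or 0.0125 FPKM over all 6 libraries, while Col4a4 averaged 1.93 FPKM. The ratio of Col4a3 to Col4a4 was at most 0.0121 in any library. Col4a1 and Col4a2, by contrast, differed by less than 1.5-fold per length in each library.

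**Figure D2:**
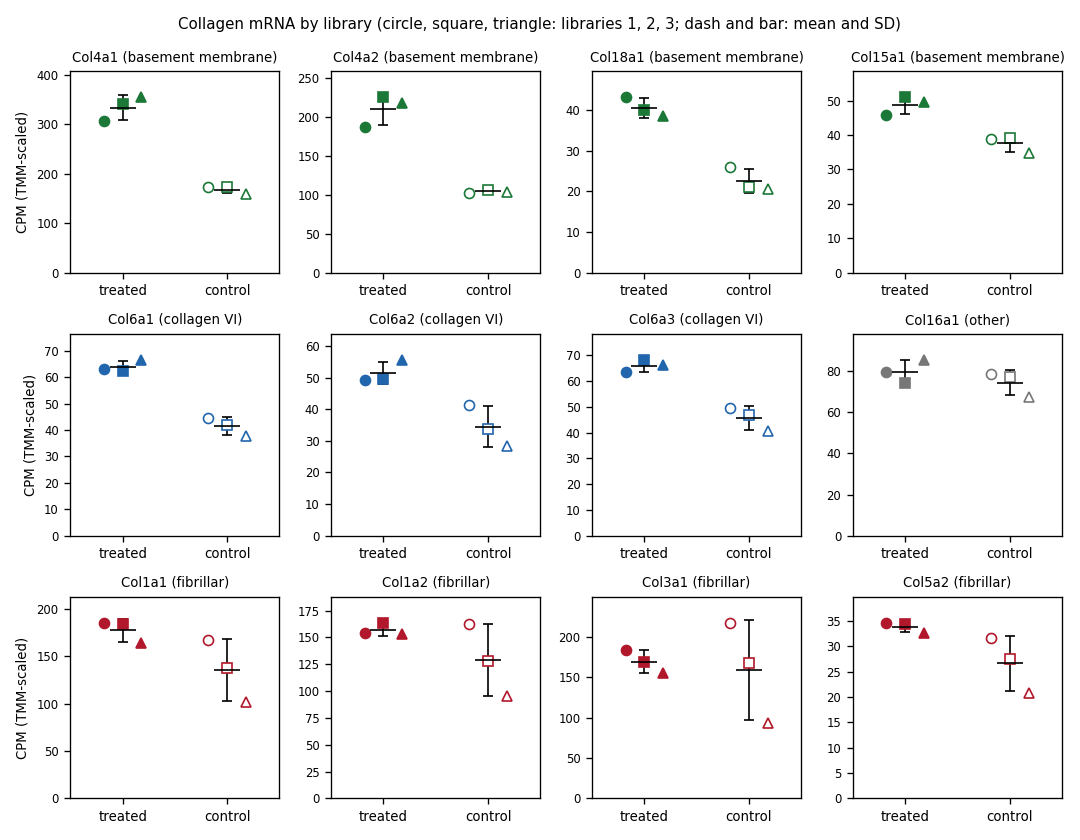
Level in TMM-scaled CPM of 12 collagen genes in each library (circle, square and triangle, libraries 1, 2 and 3; filled, treated; open, control; dash and bar, mean and SD). Col4a1, Col4a2, Col18a1, Col15a1, the 3 collagen VI chains and Col5a2 separate the groups, while Col16a1, Col1a1, Col1a2 and Col3a1 overlap.

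The Col6a1, Col6a2 and Col6a3 chains form the obligate heterotrimer of collagen VI, and all 3 mRNAs were higher in every treated library than in any control. Col6a1 (ENSMUSG00000001119, chromosome 10, 76708792 to 76726168) stood at 63.2, 62.3 and 66.4 CPM in treated libraries and at 44.6, 42.0 and 37.9 CPM in controls. The log2 fold change was 0.63 ± 0.08 (n = 3 each, edgeR adjusted p = 0.00799), and the call was lost without control 2 (0.0699). Col6a3, the large chain, stood at 63.5, 68.1 and 66.3 CPM in treated libraries and at 49.6, 46.9 and 40.5 CPM in controls. Its log2 fold change was 0.53 ± 0.09 (edgeR adjusted p = 0.0265), and its call was lost without treated 2, treated 3, control 2 or control 3 (up to 0.141).

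Col6a2, which lies near Col6a1 on chromosome 10 on the same strand, stood at 49.4, 49.5 and 55.6 CPM in treated libraries and at 41.5, 33.7 and 28.5 CPM in controls. Its log2 fold change of 0.57 ± 0.13 was of the size of its partners', and it missed the threshold (edgeR adjusted p = 0.0920) with controls spread more widely. It passed without control 1 (edgeR adjusted p = 0.0438), by DESeq2 (0.000841) and by limma-voom with quality weights (0.0242). In the other 5 leave-outs, and in the other 7 settings that kept all libraries, it missed the threshold. The FPKM ratio of Col6a1 to Col6a2 was 2.37 ± 0.0839 in treated and 2.31 ± 0.249 in control tumours, and that of Col6a3 to Col6a1 was 0.378 ± 0.0195 in treated and 0.403 ± 0.00961 in control tumours (SD, n = 3). Both ratios overlapped between groups.

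The remaining chains of type VI were scarce. Col6a4, an alternative to the Col6a3 chain, had 94, 46 and 59 counts in treated libraries and 32, 34 and 33 in controls, which gave 0.92 ± 0.38 on the log2 scale (edgeR adjusted p = 0.293) and 0.59 without treated 1. Col6a6 had 45 counts over all libraries.

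The major fibril genes were abundant in both groups and did not pass the test. Col1a1, a chain of type I collagen, the main collagen of connective tissue, stood at 185.3, 184.2 and 163.9 CPM in treated libraries and at 167.2, 138.1 and 102.1 CPM in controls. Control 1 exceeded treated 3, and control 3 was far below the others. For Col1a1 the log2 fold change was 0.39 ± 0.16 (n = 3 each, edgeR adjusted p = 0.293). Its partner Col1a2 stood at 153.9, 163.3 and 153.0 CPM in treated and 162.7, 127.9 and 95.3 CPM in control libraries (0.28 ± 0.17, edgeR adjusted p = 0.460).

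Col3a1, the homotrimeric collagen of compliant tissue, stood at 183.7, 168.4 and 155.5 CPM in treated libraries and at 217.1, 167.2 and 93.8 CPM in controls. Controls 1 and 3 bracketed the whole treated group. The log2 fold change was 0.09 ± 0.26 (edgeR adjusted p = 0.913) and -0.18 without control 3. Col5a2, a chain of the collagen V that nucleates fibrils, stood at 34.6, 34.3 and 32.6 CPM in treated and 31.6, 27.5 and 20.8 CPM in control libraries (0.35 ± 0.14, edgeR adjusted p = 0.296), the 1 fibrillar gene without overlap between groups. Its partner Col5a1 had 0.29 ± 0.20 (edgeR adjusted p = 0.539) and overlapped.

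Ratios between fibrillar partner chains overlapped between groups. Col1a1 exceeded Col1a2 per length by 2.15 ± 0.126 in treated and 2.01 ± 0.0526 in control tumours, and Col5a1 stood to Col5a2 as 1.10 ± 0.191 in treated and 1.14 ± 0.0895 in control tumours (FPKM ratio, SD, n = 3). The type I protomer has an excess of the Col1a1 over the Col1a2 chain. The cartilage-type genes Col2a1, Col11a1 and Col11a2 and the minor genes Col24a1 and Col27a1 stayed under 0.6 FPKM on average and had log2 fold changes from -0.03 to 0.58, with edgeR adjusted p from 0.329 to 0.994.

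Control 3 was the lowest control for 8 of 11 fibrillar, 5 of 7 basement membrane, 3 of 4 collagen VI and 6 of 15 remaining genes, against 38.3% of all tested genes. Its median log2 ratio to the mean of controls 1 and 2 was -0.35 for fibrillar, -0.17 for basement membrane, -0.22 for collagen VI and -0.21 for the remaining genes, and -0.01 for all tested genes. A difference between classes in this spread was not tested. Markers of several cell types were low in that library as well. The median was -1.05 for fibroblast markers, with control 3 lowest for 10 of 11, and -1.15 for skeletal muscle markers, with control 3 lowest for 9 of 10. Melanocyte markers had a median of -0.10, with control 3 lowest for 7 of 8. The part of any of these in the fibrillar values was not tested.

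**Figure D3:**
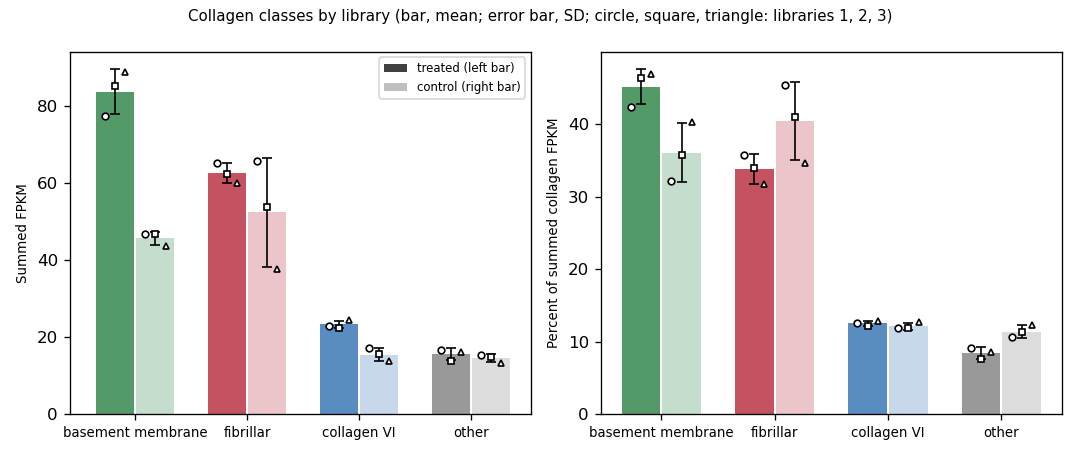
Summed FPKM of each collagen class (left) and its percent of all collagen FPKM (right) in each library (left bar of a pair, treated; right bar, control; bar, mean; error bar, SD; circle, square and triangle, libraries 1, 2 and 3). Basement membrane sums separate the groups in both panels, and fibrillar sums overlap with a control range of 37.7 to 65.9 FPKM.

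All collagen mRNA summed to 182.4, 184.1 and 189.6 FPKM in treated libraries and to 145.1, 130.9 and 108.6 FPKM in controls. Basement membrane genes summed to 77.3, 85.2 and 88.8 FPKM in treated libraries and to 46.7, 46.8 and 43.8 FPKM in controls, with no overlap. Collagen VI genes likewise did not overlap, at 23.0, 22.5 and 24.5 FPKM in treated and 17.2, 15.6 and 13.8 FPKM in control libraries. Fibrillar genes overlapped, at 65.3, 62.4 and 60.2 FPKM in treated and 65.9, 53.7 and 37.7 FPKM in control libraries, and so did the remaining class, at 13.9 to 16.8 FPKM in treated and 13.4 to 15.4 FPKM in control libraries. No test was made on these sums.

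As a share of collagen FPKM, basement membrane genes took 45.2 ± 2.43% in treated and 36.1 ± 4.08% in control tumours (SD, n = 3). Fibrillar genes took 33.8 ± 2.04% in treated and 40.4 ± 5.38% in control tumours, and collagen VI took 12.6 ± 0.346% in treated and 12.2 ± 0.481% in control tumours. The remaining class took 8.43 ± 0.825% in treated and 11.4 ± 0.855% in control tumours. Libraries of the groups overlapped in the fibrillar and collagen VI shares and did not overlap in the basement membrane and remaining shares, and no share was tested. The basement membrane sum was 1.18, 1.36 and 1.48 times the fibrillar sum in treated libraries and 0.709, 0.871 and 1.16 times in controls, so control 3 came close to treated 1.

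Fibril-associated, network, anchoring and transmembrane collagens gave no call, and 8 of 15 had a log2 fold change above 0, as did 49.4% of all tested genes. Col16a1, a fibril-associated collagen and the most abundant of them at 10.1 FPKM, stood at 79.5, 74.2 and 85.4 CPM in treated and 78.9, 77.1 and 67.6 CPM in control libraries (0.10 ± 0.08, n = 3 each, edgeR adjusted p = 0.643). Col20a1 stood at 4.54, 2.52 and 4.41 CPM in treated and 4.96, 5.62 and 4.93 CPM in control libraries (-0.43 ± 0.25, edgeR adjusted p = 0.449), and was the 1 member with all treated libraries below all controls. It overlaps the gene 9230112E08Rik on the same strand by 741 bases, so its reads are uncertain. Col10a1, the collagen of hypertrophic cartilage, had 0.58 ± 0.30 (edgeR adjusted p = 0.394) with 589 counts in all, inside the gene Nt5dc1 on the opposite strand with 9452 counts. The other 11, apart from Col17a1, had log2 fold changes from -0.86 to 0.47.

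Col17a1, a transmembrane collagen of the hemidesmosomes that anchor keratinocytes, had 470, 14 and 20 counts in treated libraries and 7, 0 and 0 in controls. Nearly all of its counts came from treated 1. The log2 fold change was 6.04 ± 1.77 (edgeR adjusted p = 0.161) and 2.76 without treated 1 (0.410). The keratin genes Krt5 and Krt14 had 1841 and 2739 counts in treated 1, at most 6 in treated 2 or 3 and at most 4 in controls. The desmosomal gene Dsp stood at 13.1 CPM there, against 1.40 and 2.03 CPM in treated 2 and 3 and 1.33 to 1.75 CPM in controls. Col7a1, the anchoring fibril collagen of skin, was also highest in treated 1, at 3.90 CPM, with 3.32 and 2.02 CPM in treated 2 and 3 and 2.10 to 2.32 CPM in controls (0.47 ± 0.28, edgeR adjusted p = 0.457). The part of keratinocyte RNA in these values was not tested.

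The nidogens, which bridge type IV collagen and laminin, rose with Col4a1 and Col4a2. Nid1 stood at 64.3, 68.5 and 65.6 CPM in treated libraries and at 41.1, 35.2 and 33.3 CPM in controls (log2 fold change 0.86 ± 0.09, n = 3 each, edgeR adjusted p = 0.00299). Nid2 stood at 24.6, 25.1 and 25.2 CPM in treated and 13.5, 13.7 and 13.8 CPM in control libraries (0.87 ± 0.09, edgeR adjusted p = 0.00249). Agrn, a heparan sulphate proteoglycan, rose 1.43-fold (edgeR adjusted p = 0.0188). Of 15 laminin, nidogen and proteoglycan genes tested, 3 rose, 0 fell and 12 were not called, with a median log2 fold change of 0.32. Sparc, a collagen-binding matricellular protein and the most abundant of the list, had 0.24 ± 0.11 (edgeR adjusted p = 0.327). Nid1 and Nid2 kept their calls with each library left out, and Agrn lost its call in 4 of the 6 leave-outs (up to 0.128).

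Genes for proline hydroxylation and for the collagen chaperone rose, while most of this list did not pass the test. P4ha1 and P4ha2, catalytic subunits of the prolyl 4-hydroxylases that stabilise the triple helix, rose 1.42-fold and 1.57-fold (edgeR adjusted p = 0.0221 and 0.0185). P4ha2 stood at 135.8, 109.04 and 112.8 CPM in treated libraries and at 79.4, 77.3 and 71.04 CPM in controls. Serpinh1, the procollagen chaperone of the endoplasmic reticulum, averaged 1042 ± 84.7 CPM in treated against 756.2 ± 40.3 CPM in control libraries (SD, n = 3; log2 fold change 0.46 ± 0.07, edgeR adjusted p = 0.0245). P4hb, the shared beta subunit, had -0.16 ± 0.09 (edgeR adjusted p = 0.442), with every treated library below the controls. Of 21 genes 3 rose, 0 fell and 18 were not called, with a median of 0.11, where 1.36% of all tested genes rose and 0.249% fell. P4ha1, P4ha2 and Serpinh1 lost their calls in 4, 3 and 5 of the 6 leave-outs (edgeR adjusted p up to 0.137).

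Of 13 genes for propeptide cleavage and cross-linking 0 were called by edgeR and 2 had an unadjusted p under 0.05. Pxdn, the peroxidase that cross-links type IV collagen, stood at 19.4, 16.9 and 14.0 CPM in treated libraries and at 11.5, 7.97 and 8.63 CPM in controls (log2 fold change 0.84 ± 0.18, n = 3 each, edgeR adjusted p = 0.0749). The groups did not overlap, and it passed by DESeq2 and by limma-voom with quality weights. In the other 7 settings that kept all libraries, and in all 6 leave-outs, it missed the threshold. Bmp1, which cleaves C-propeptides of fibrillar procollagens, had 0.29 ± 0.12 (edgeR adjusted p = 0.309) and Pcolce, its enhancer, 0.06 ± 0.09 (0.805). Among 9 receptor genes the discoidin domain kinase Ddr1 rose 1.34-fold (edgeR adjusted p = 0.0426), a call lost in 5 of the 6 leave-outs (up to 0.241). Itgb1, the beta subunit of collagen-binding integrins, had -0.05 ± 0.08 (edgeR adjusted p = 0.819), the leukocyte receptor Lair1 had -1.11 ± 0.54 (0.371) and the integrin subunit Itga2 -0.39 ± 0.33 (0.630). The median of the list was -0.02, and that of the processing list 0.17.

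Of 16 proteins of fibrils and the surrounding stroma 1 rose and 0 fell, with a median of 0.11. Among all tested genes 1.36% rose and 0.249% fell, and 9.12% were higher at an unadjusted edgeR p under 0.05. Thbs1, the matricellular protein thrombospondin, stood at 116.1, 159.05 and 134.3 CPM in treated libraries and at 42.1, 41.2 and 36.5 CPM in controls (log2 fold change 1.77 ± 0.12, n = 3 each, edgeR adjusted p = 0.00036), and kept its call with each library left out. Matn2, a matrilin of the pericellular matrix, stood lower in every treated library, at 4.21, 5.98 and 4.49 CPM, than in any control, at 6.72, 7.25 and 7.47 CPM (-0.55 ± 0.18, edgeR adjusted p = 0.207). The proteoglycan Bgn had 0.31 ± 0.13 (edgeR adjusted p = 0.293) and Fbln1, the most abundant of the list, 0.10 ± 0.07 (0.566). Among 16 TGF-beta ligand, receptor and target genes 0 were called by edgeR and 6 had an unadjusted p under 0.05, all higher. Ccn2, a matricellular target of this pathway, stood at 34.7, 80.2 and 83.8 CPM in treated and 29.3, 25.2 and 21.2 CPM in control libraries (1.39 ± 0.31, edgeR adjusted p = 0.0792), and passed without treated 1 (edgeR adjusted p = 0.00168), by DESeq2 (0.0157) and by limma-voom with quality weights (0.0150). Ccn1, a related matricellular gene, had 1.00 ± 0.30 (edgeR adjusted p = 0.167), and passed without treated 1 (0.000715) and by limma-voom with quality weights (0.0363). The ligand gene Tgfb2 had 0.69 ± 0.17 (edgeR adjusted p = 0.108) and passed by DESeq2 (0.0417). Ccn2, Ccn1 and Tgfb2 missed the threshold in all settings not named here. The list's median was 0.17.

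**Figure D4:**
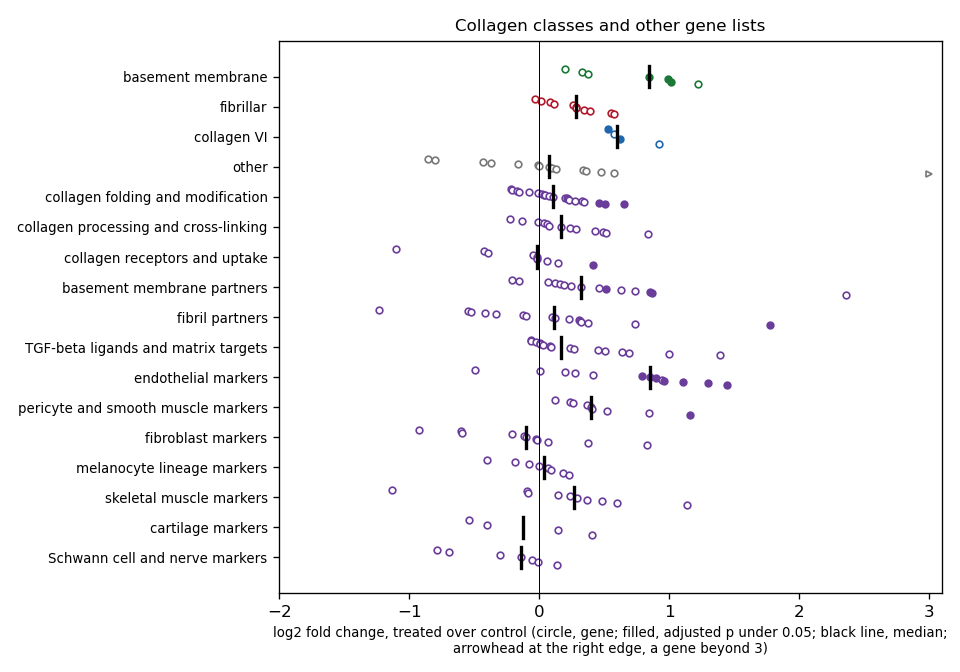
Log2 fold change of treated over control tumours for the tested genes of each collagen class and of 13 other lists (circle, gene; filled, adjusted p under 0.05; black line, median; arrowhead, Col17a1 beyond the axis). Filled circles lie among basement membrane, collagen VI, folding, basement membrane partner and endothelial genes, with single ones among receptors, fibril partners and pericyte markers, and fibroblast markers centre near 0.

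Markers of several cell types were read beside the collagens. In general, endothelial cells and pericytes make vascular type IV collagen, and fibroblasts make fibrillar collagen and collagen VI. Which cells made the collagen mRNA of these tumours was not tested. Of 13 endothelial markers 7 rose, with a median of 0.85, and their summed level was 520.5 to 550.5 CPM in treated and 391.1 to 417.1 CPM in control libraries. Pecam1 rose 2.46-fold (edgeR adjusted p = 0.000348), Robo4 2.73-fold (0.0017) and Cdh5 2.16-fold (0.00295), while Eng, the most abundant, had 0.20 ± 0.05 (0.131). These 3 calls held with each library left out. The other 4 were less stable, with Tie1 and Emcn losing the call in 5 of the 6 leave-outs, Esam in 4 and Plvap in 2 (edgeR adjusted p up to 0.160). Not every marker was higher. Vwf, the von Willebrand factor gene, stood at 34.2, 28.1 and 36.3 CPM in treated and 57.7, 48.3 and 32.4 CPM in control libraries (-0.49 ± 0.20, edgeR adjusted p = 0.284, unadjusted p = 0.0391), and the angiopoietin receptor gene Tek had 0.00 ± 0.40 (edgeR adjusted p = 0.998). Of 9 pericyte and smooth muscle markers 1 rose, the channel gene Kcnj8 (1.16 ± 0.20, edgeR adjusted p = 0.0355), the median was 0.40, and the sum ran from 175.9 to 193.7 CPM in treated and from 147.6 to 155.9 CPM in control libraries. The Kcnj8 call was lost in 5 of the 6 leave-outs (edgeR adjusted p up to 0.194). Pdgfrb had 0.40 ± 0.12 (edgeR adjusted p = 0.179). Of 11 fibroblast markers 0 were called by edgeR and 0 had an unadjusted p under 0.05. Their median was -0.10 and their sum 122.4 to 139.4 CPM in treated and 104.9 to 157.6 CPM in control libraries. Single genes weighed heavily in these sums. Gsn gave 82.3, 85.2 and 95.8 CPM of the fibroblast sum in treated and 104.0, 100.6 and 80.7 CPM in control libraries. Eng gave 262.2 to 271.4 CPM of the endothelial sum in treated and 228.3 to 238.4 CPM in control libraries. Mcam gave 70.4 to 89.4 CPM of the pericyte sum in treated and 73.2 to 76.5 CPM in control libraries. The smallest p among the fibroblast markers belonged to Twist2 (0.83 ± 0.62, edgeR adjusted p = 0.578) and Mfap4 (-0.60 ± 0.54, 0.657). By edgeR 0 melanocyte, skeletal muscle, cartilage or Schwann cell markers were called, of 8, 10, 4 and 7 tested, with medians of 0.04, 0.26, -0.13 and -0.14, and 2, 0, 0 and 0 had an unadjusted p under 0.05. Of 8 keratinocyte markers the count filter left only Dsp for testing (1.81 ± 0.78, edgeR adjusted p = 0.310), so the list as a whole was not tested. The part of endothelial content in the rise of Col4a1, Col4a2 and Col18a1 was not tested.

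**Figure D5:**
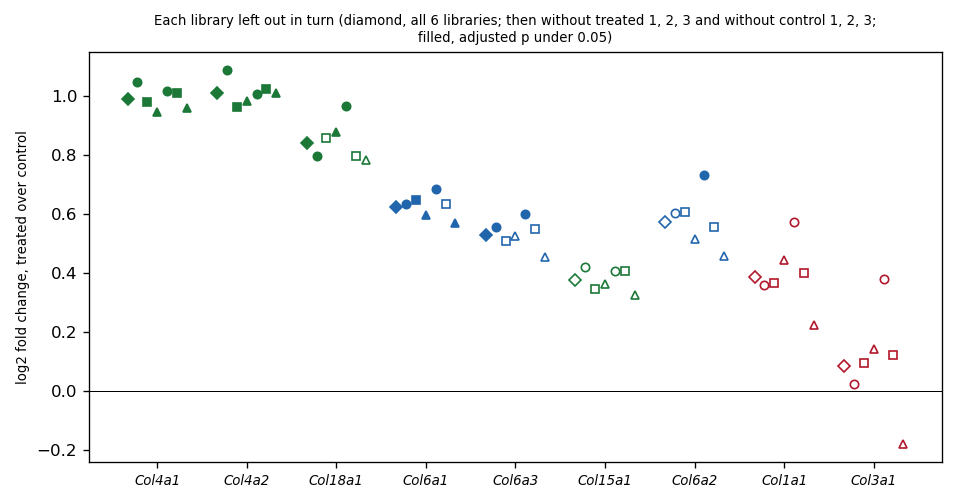
Log2 fold change of 9 collagen genes with all 6 libraries (diamond) and with each library left out in turn (circle, square and triangle, without treated 1, 2 and 3 and then without control 1, 2 and 3; filled, adjusted p under 0.05). Col4a1 and Col4a2 stay filled throughout, Col18a1, Col6a1 and Col6a3 lose the call in some settings at little change in size, and Col3a1 drops below 0 without control 3.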

How the data were processed

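Per the labels' protocols, polyadenylated RNA was fragmented, made into libraries that mark strand and sequenced as paired reads. Tools listed in the submitters' processing notes are fastp, StringTie and edgeR, with no version or role. The sources used here name no aligner, build or annotation. The authors deposited, per the file headers, raw counts and FPKM per gene and library. FPKM over count was constant to within 1% in all libraries for 23 of 24 members with at least 100 counts in each. Coordinates are those of the table, and 36 of 41 members have the same ones in GENCODE M21 (GRCm38). One FPKM column has an extra suffix in its header and was assigned to control 2 by its name.

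The count test ran under R 4.3.3 in edgeR 4.0.16: filterByExpr by group (minimum count 10, minimum total 15; 18049 genes kept), TMM factors from 0.974 to 1.01, glmQLFit and glmQLFTest on group alone, two-sided, Benjamini-Hochberg over all genes tested. The SE is the fold change divided by the square root of F. With 57017043 to 66634551 counts per library the spread between libraries limits abundant genes, and counts limit scarce ones. The fit was tested on simulated data, with 50 genes changed at each of 1.5-fold, 2-fold, 4-fold and 8-fold. It recovered 14, 28, 32 and 40 of these, and 4 of 118 calls were false. A gene that did not pass may therefore still have changed. Alternatives used DESeq2 1.42.0 and limma 3.58.1, other scalings and filters, and left-out libraries.

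Members, classes and gene lists were chosen with earlier results of these data known. Named are members called or at an unadjusted p under 0.05, in each class the 2 with the highest mean FPKM and the 2 with the smallest p, and of each other list the 3 with the smallest p, the 1 with the highest mean FPKM and those called, or some of these. Genes named beyond this rule (Col4a3, Col4a4, Col4a5, Col1a2, Col5a1, Col7a1, Vwf, Tek, the keratins) were chosen after their values were seen. Equal replicate numbers were not taken as pairs.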

Additional observations from a re-analysis of the deposited data

How the results depend on the processing

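The calls of Col4a1 and Col4a2 held under all 15 alternatives, those of Col18a1 under all 9 that kept the 6 libraries, and no fibrillar gene was called under any. Over leave-outs, collagen genes called higher numbered 2 to 6 and collagen VI genes 0 to 3, and genes called among all 94 to 308 higher and 3 to 39 lower, fewest without control 2. The same ranges for class medians were 0.67 to 0.97 (basement membrane), 0.13 to 0.45 (fibrillar), 0.51 to 0.69 (collagen VI) and 0.023 to 0.20 (remaining). DESeq2 called 701 genes higher and 297 lower and limma-voom with quality weights 601 and 191. With the replicate block these numbers were 123 and 14, with 0 collagen VI genes and 1 of the remaining class (Col17a1). Kcnj8, Esam, Plvap, Tie1, Emcn, P4ha1, Agrn and Ddr1 also missed the threshold with the block (edgeR adjusted p from 0.0537 to 0.142). Ddr1 missed it as well with no filter beyond a summed count of 15 (edgeR adjusted p = 0.0518). Nothing in the labels pairs libraries of equal number. Correlations of deviations from group means were 0.0856, -0.164 and -0.107 for numbers 1, 2 and 3, and 2 of 6 libraries correlated best with their own number. With 3 libraries per group, these values cannot decide whether equal numbers share an animal, day or batch. With type IV chains alone as the basement membrane class, the remaining class held 1 call, Col18a1. Under a stricter filter (minimum count 50) the basement membrane median was 0.61, since Col4a3 left the test. As shares of counts in place of FPKM, basement membrane took 42.3% in treated and 33.3% in control, and fibrillar 38.8% in treated and 45.8% in control. Collagen VI took 11.4% in treated and 10.97% in control, and the remaining class 7.54% in treated and 9.96% in control. Signs turned within leave-out ranges for Col3a1 (-0.18 without control 3, up to 0.38 without control 1), Itgb1 (0.033 without treated 1, down to -0.091) and Mfap4 (0.20 without control 1, down to -0.97), none called; the cause was not tested.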
